A study of Mus musculus with 3 samples.

Results

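The tripartite motif (TRIM) genes are 68 genes whose symbols begin with Trim and a number and that have at least 1 protein-coding transcript in the deposited transcript tables, out of 55536 genes in all and 21901 genes with a protein-coding transcript. The choice used names and transcript types and no measured value. A single further gene of matching name, Trim30e-ps1, had no coding transcript and was left out, and its largest count in any library was 1. They were measured in RNA of the chromatin fraction of macrophages grown from the bone marrow of C57BL/6J mice and given 100 ng/ml Lipid A for 60 minutes. Lipid A is the part of bacterial endotoxin that activates Toll-like receptor 4 (TLR4), and the chromatin fraction is rich in RNA still being made or spliced. The libraries, depleted of ribosomal RNA, form 1 group of 3 biological replicates, which the labels give 1000, 250 and 500 ng of starting RNA (replicates 1, 2 and 3). No allele or transgene is labelled, the age and sex are labelled as not collected, and no unstimulated sample was analysed here. Values below are therefore levels after Lipid A, not changes caused by it.

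TRIM proteins carry a RING domain, 1 or more B-box domains and a coiled coil, and most act as ubiquitin ligases, with a C-terminal domain that sets what they bind. A large branch with a PRY-SPRY domain takes part in antiviral defence, either by binding viral particles or by adding ubiquitin to sensors and adaptors of innate immunity. Type I interferon raises many of these genes in macrophages through the factors ISGF3 and the IRF family, which bind the interferon-stimulated response element (ISRE) in promoters. Other branches repress chromatin, bind microtubules or serve muscle and neurons.

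Promoter sequences are shown first because 8 of the 15 interferon-inducible TRIM genes with a promoter entry shared 1 short element close to the start of transcription. Windows from 250 bases before to 50 bases after each start came from RefSeq on GRCm38.p6 and matched 53 of the 68 genes (67 windows). The ISRE core was searched on both strands as TTTC and TTTC with any 2 bases between, and the motif of PU.1, the lineage factor of macrophages, as GAGGAAGT on both strands. Below, capitals mark these motifs, either as written or as the reverse complement, and each sequence runs 5′ to 3′ on the strand of its gene.
Trim30a (chr7:104465205-104465304, minus strand): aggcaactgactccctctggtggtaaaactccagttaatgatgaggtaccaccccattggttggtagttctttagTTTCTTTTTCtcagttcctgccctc
Trim12a (chr7:104315467-104315560, minus strand): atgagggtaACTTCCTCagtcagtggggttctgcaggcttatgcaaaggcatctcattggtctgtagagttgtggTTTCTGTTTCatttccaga
Trim5 (chr7:104288131-104288230, minus strand): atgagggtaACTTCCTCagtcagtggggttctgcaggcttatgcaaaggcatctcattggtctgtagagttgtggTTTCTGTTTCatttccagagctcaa
Trim12c (chr7:104353354-104353453, minus strand): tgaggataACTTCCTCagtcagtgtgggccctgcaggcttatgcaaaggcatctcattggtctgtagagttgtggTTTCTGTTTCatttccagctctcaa
Trim34a (chr7:104244392-104244485, plus strand): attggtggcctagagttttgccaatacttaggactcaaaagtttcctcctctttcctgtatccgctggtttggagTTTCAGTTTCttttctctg
Trim21 (chr7:102565454-102565544, minus strand): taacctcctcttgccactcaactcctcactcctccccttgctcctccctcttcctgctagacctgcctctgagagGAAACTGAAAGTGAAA
Trim26 (chr17:36836911-36837016, plus strand): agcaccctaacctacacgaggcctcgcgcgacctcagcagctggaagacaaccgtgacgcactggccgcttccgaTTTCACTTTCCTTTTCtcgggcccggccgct

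The stretch printed for Trim30a recurs letter for letter at Trim30d (chr7:104507866-104507965, minus strand), with 100 of 100 bases identical. Trim12a and Trim5 were identical over the 94 bases they share, and Trim12a and Trim12c over 90 of 93 aligned bases. Over the whole windows, aligned with gaps, identity was lower, at 90.82% for Trim30a and Trim30d and 72.65% for Trim12a and Trim12c. It was 82.19% for Trim12c and Trim5 and 67.13% for Trim12a and Trim5. The PU.1 motif begins 66 bases before the ISRE core in Trim12a and Trim5 and 67 bases before it in Trim12c. The ISRE core begins 36 bases before the start in Trim30a, 41 in Trim30d, 49 in Trim5, 29 in Trim12c and 160 in Trim26, and 10 bases after it in Trim12a and Trim34a and 13 in Trim21. The Trim21 and Trim26 windows each hold 2 overlapping ISRE cores. Another Trim30a window, not printed (chr7:104446076-104446375), also holds an ISRE core, which begins 2 bases after the start of that window's transcript. Across the 53 genes, 9 (17.0%) held an ISRE core, against 3.99% of all 27025 genes in the same promoter table, where a gene counts if any of its windows holds the motif (3.44% of the 32851 windows). The ninth was Trim2, in 1 of its windows. A PU.1 motif was found in 5 of the 53 (9.43%, against 3.69% of genes), namely Trim5, Trim12a, Trim12c, Trim2 and Trim24. Trim5, Trim12a and Trim12c carry near copies of 1 stretch, and Trim30a and Trim30d share another. The genes behind the ISRE and PU.1 shares are therefore not independent of each other. The NF-kB consensus, also on both strands, was found in 5 genes (9.43%), close to the 9.55% of all genes. None of those 5 was among the 15 interferon-inducible genes, a number too small to set 0 apart from that share. The STAT site TTCNNNGAA, its own reverse complement, was found in 6 genes (11.3%, against 9.55% of genes), among them Trim30c and Trim38. These are matches of letters in these windows, and binding was not measured.

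The libraries held 13318395, 15352661 and 15812581 expected counts on genes (replicates 1, 2 and 3). A count of 3, used as the floor of detection for counting error alone, equals 0.225, 0.195 and 0.19 counts for each 1e+06 gene counts (CPM). All 10 macrophage markers were detected, at 8.61 to 454 TPM, a level per transcript length scaled to a total of 1e+06 in each library, and none of 34 markers of T cells, B cells, neutrophils, muscle, neurons, germ cells or fibroblasts reached a TPM of 1 in all 3 libraries. That holds for the gene table, where 1 of the 34, Cd4 at 1.14, had a mean TPM of at least 1. In a second table, with estimated counts per transcript, 7 of the 34 had such a mean, among them Actn2 at 32.7, Cd3d at 25.0 and Ms4a1 at 3.05. In bulk RNA, fewer cells with a transcript and less RNA per cell cannot be told apart.

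TRIM genes took 0.161% ± 0.0072 of all gene counts (SD, n = 3), and 28 of the 68 were detected, meaning a TPM of at least 1 in every library. Among all coding genes 35.9% were detected by this rule. The interferon-inducible list holds Trim5, Trim6, Trim12a, Trim12c, Trim14, Trim21, Trim25, Trim26, Trim30a, Trim30b, Trim30c, Trim30d, Trim34a, Trim34b, Trim38 and Trim56. It was drawn up by known role with earlier results of these data known, so its contrast with the rest describes levels and was not tested. The interferon-inducible genes stood far above the rest of the family: 13 of 16 were detected against 15 of 52 others, and they held 79.0% ± 2.97 of all TRIM counts. Their median log2(TPM + 1) was 3.60 ± 0.13 against 0.32 ± 0.07 for the other 52, a difference of 3.28 ± 0.09 (3.30, 3.18 and 3.35 by library). Among detected genes only, the difference was 1.51 ± 0.50. The family as a whole had a median of 0.97 ± 0.24, and all coding genes 0.30 ± 0.07.

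**Figure D1:**
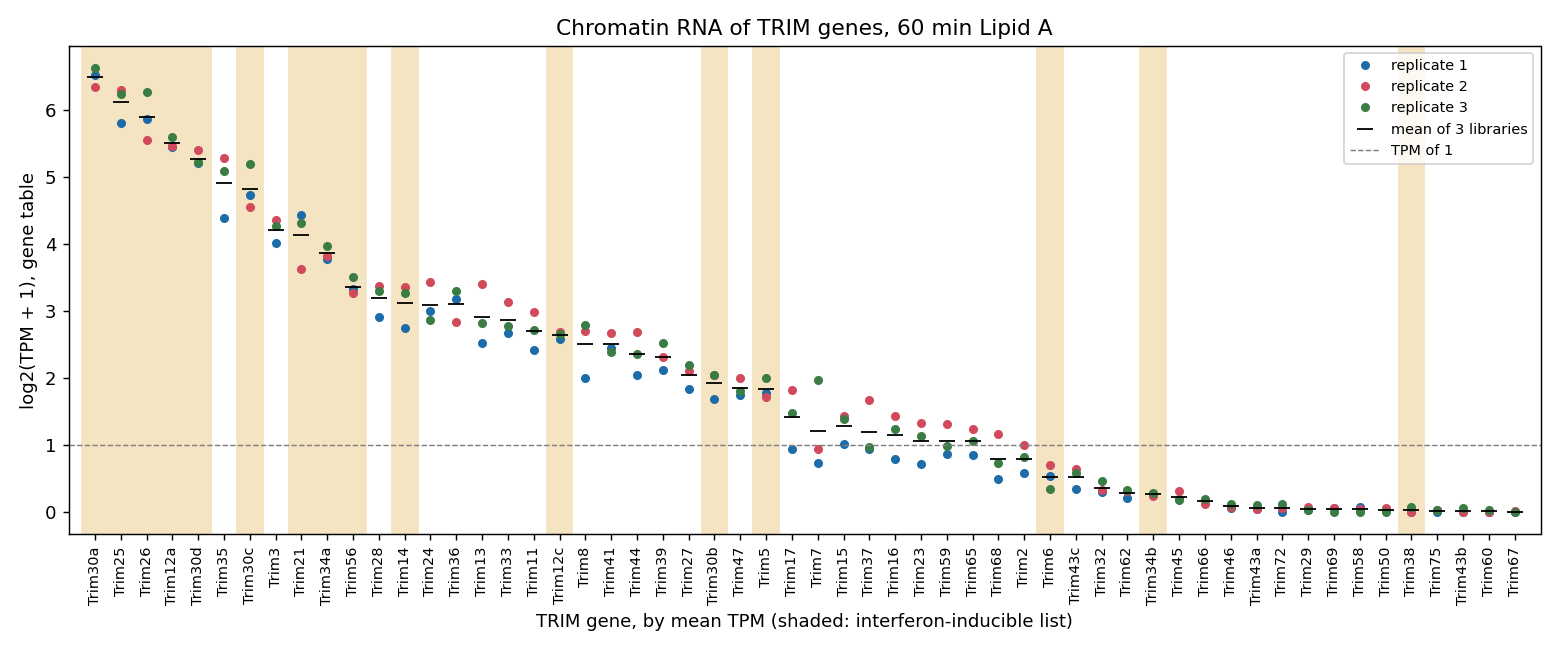
Level of each TRIM gene with a count in any library, as log2(TPM + 1), ordered by mean TPM. Points are the 3 libraries, bars their mean, shading marks the 16 interferon-inducible genes, and the dashed line is a TPM of 1. The 5 highest genes are all shaded and the genes at the right end are near 0.

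Trim30a led the family. It encodes a PRY-SPRY protein known to restrain TLR-driven NF-kB signalling by promoting loss of the adaptors TAB2 and TAB3. It stood at 91.5, 80.3 and 98.0 TPM in replicates 1, 2 and 3, higher than 97.8% of coding genes by its mean. Trim25 (chr11:88999376-89020293), the ligase that adds ubiquitin to the RNA sensor RIG-I, stood at 55.1, 78.2 and 74.8 TPM. Every library of Trim30a was above every library of Trim25. Trim26 (chr17:36837134-36859398), a ligase encoded in the major histocompatibility region, stood at 57.5, 45.9 and 76.2 TPM, a range that overlaps that of Trim25. The 5 highest genes, these 3 with Trim12a and Trim30d, held 64.0% ± 1.74 of all TRIM counts.

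Both of those last genes lie in the TRIM cluster on chromosome 7 (mm10 chr7:104218793-104507849, 289.1 kb), which holds 10 TRIM genes and 8 other annotated genes, none of them coding. From low to high coordinate the order is Trim6, Trim34a, Trim5, Trim12a, Trim34b, Trim12c, Trim30b, Trim30c, Trim30a and Trim30d. Of the 10, 8 were detected, with a median log2(TPM + 1) of 3.25 ± 0.07. Trim12a, Trim5 and Trim12c are the mouse relatives of primate TRIM5, which blocks retroviral capsids. Trim12a stood at 43.0, 43.1 and 47.5 TPM, while Trim12c stood at 5.0, 5.45 and 5.34 and Trim5 at 2.43, 2.30 and 3.00. These 3 genes share the nearly identical promoter stretch printed above, and their ranges over the libraries did not overlap. Their whole promoter windows were only 67.13% to 82.19% identical in pairs, and a link of promoter sequence to level was not tested.

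Trim30d stood at 35.97, 41.4 and 36.3 TPM, and every library of Trim12a lay above it. Trim30c stood at 25.7, 22.5 and 35.7 TPM, and Trim30b at 2.22, 3.14 and 3.14. The paralogs Trim30a and Trim30d share a 100-base promoter stretch, with whole windows 90.82% identical, and differed in level in every library. Trim34a stood at 12.8, 13.2 and 14.7 TPM and its close copy Trim34b at 0.2, 0.18 and 0.22. Trim6, known for making free ubiquitin chains that activate the kinase IKK-epsilon, was at 0.45, 0.63 and 0.27 TPM, the lowest gene of the cluster but for Trim34b.

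**Figure D2:**
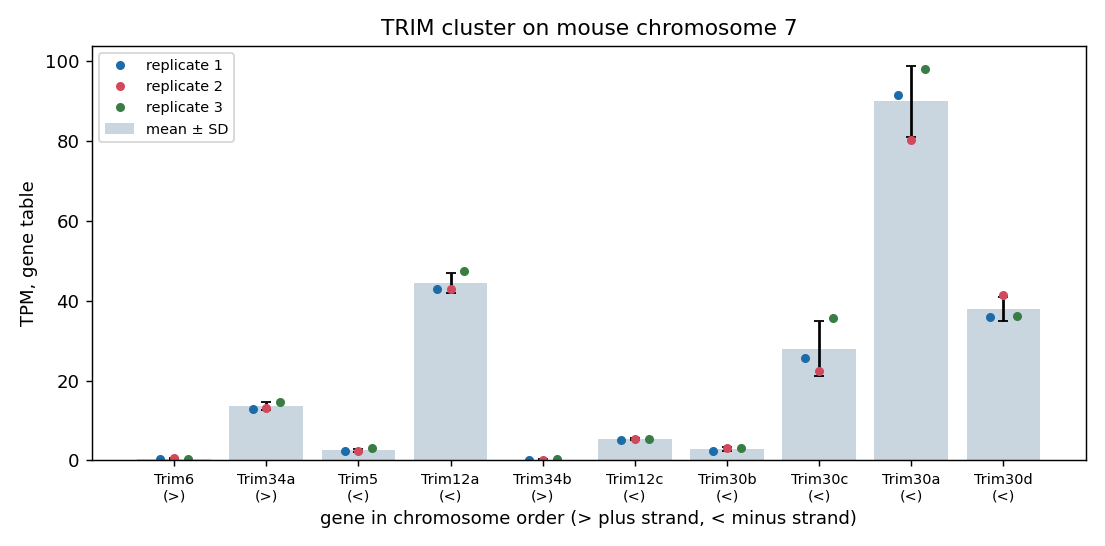
TPM of the 10 TRIM genes of the chromosome 7 cluster in chromosome order, with the strand of each. Bars are means with SD and points are the 3 libraries. Trim30a is highest at 89.9 ± 8.98, and Trim6 and Trim34b are lowest.

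Sequence sharing limits some of these levels. Of the 31-base words in the transcripts of Trim34a, 48.7% also occur in Trim34b, and 69.0% of those of Trim34b occur in Trim34a. Trim5 shared 52.9% of its words with other genes, chiefly Trim12c, and Trim12c 47.7%, so how their reads were split is uncertain. Trim12a shared 15.7%, Trim30d 11.9%, Trim30a 11.7%, Trim30c 5.69% and Trim30b 2.60%. The deposited posterior SD of a count was above 0 in 14 TRIM genes and at most 5.45 counts, which covers only the program's own assignment.

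Outside the cluster, the interferon-inducible genes spread widely. Trim21, the cytosolic receptor for antibody-coated virus, stood at 20.7, 11.4 and 18.9 TPM. Trim56, a ligase of the STING and double-stranded RNA pathways, stood at 9.03, 8.60 and 10.4 TPM, and every library of it lay below those of Trim34a, the next gene up. Trim14, an adaptor at MAVS that lacks a RING domain, stood at 5.72, 9.29 and 8.61 TPM, and 36.3% of its words also occur on the opposite strand in other genes, mostly Nans. Trim38, which promotes loss of TAB2 and of TLR adaptors, had 0, 0 and 1 counts, so it was at or below the floor in every library. It is the only one of the 16 interferon-inducible genes at or under 3 counts in all 3 libraries.

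Of the genes outside that list, Trim35, a ligase tied to cell death in blood cells, was highest at 19.9, 38.1 and 33.0 TPM, with replicate 1 well below the other libraries. Trim3, best known as a regulator of neurons, followed at 15.3, 19.5 and 18.4 TPM. The chromatin regulators Trim28, Trim24 and Trim33, corepressors with a PHD finger and bromodomain, were all detected, at 8.22 ± 1.52, 7.68 ± 1.85 and 6.36 ± 1.29 TPM. The fourth gene of that kind, Trim66, was at 0.117 ± 0.0321. Trim36, a microtubule-binding ligase, was at 8.08, 6.12 and 8.85 TPM. Trim13, anchored in the endoplasmic reticulum, was at 4.77, 9.55 and 6.07 TPM, but it lies over Dleu2 on the opposite strand, a noncoding gene at 98.5 TPM. The sources used here do not give the strand setting of the counting, so reads of those overlapping genes cannot be told apart.

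The family was also grouped by role and by C-terminal domain. Of 8 regulators of NF-kB and TLR signalling, 4 were detected: Trim30a, Trim13, Trim8 (2.99, 5.54 and 5.96 TPM), which activates NF-kB, and Trim27 (2.56, 3.29 and 3.58 TPM). Of the 38 PRY-SPRY genes 19 were detected and of the 5 NHL genes 2, Trim3 and Trim56. None of 4 muscle genes was detected. The muscle ligases Trim54, Trim55 and Trim63 had no count in any library, and Trim72, which reseals muscle membranes, had 0, 1 and 2. Of 5 neural genes only Trim3 was detected.

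In all, 12 TRIM genes had no expected count in any library, against 33.1% of coding genes, and 12 more had at most 3 counts in each. The first set was Trim9, Trim10, Trim31, Trim40, Trim42, Trim52, Trim54, Trim55, Trim61, Trim63, Trim71 and Trim80. It includes Trim71, an RNA-binding ligase of early embryos, and Trim10, a gene of red cell formation. In the table with estimated counts Trim71 stood at 0.55, 1.02 and 0.63 TPM and Trim9 at 0.38, 0.95 and 0.90. Trim10, Trim31 and Trim40 lie next to Trim15 and Trim26 on chromosome 17, where Trim15 stood at 1.03, 1.70 and 1.61 TPM. Of 27 pairs of detected genes next to each other in the order of levels, 22 overlapped between libraries, though 6 of those kept 1 order within every library, among them Trim26 over Trim12a and Trim30d over Trim35. The 5 that did not were Trim30a over Trim25, Trim12a over Trim30d, Trim30c over Trim3, Trim34a over Trim56 and Trim5 over Trim15.

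Replicate 2, the library from the least starting RNA, held the lowest value for 6 of 13 interferon-inducible TRIM genes and the highest value for 9 of 12 others. For each gene, log2(TPM + 1) in replicate 2 was set against the mean of replicates 1 and 3, over the 25 TRIM genes that averaged 100 expected counts or more. Replicate 1 was the lowest library for 16 of them, against 78.1% of 6133 coding genes under the same rule. Replicate 2 was the lowest for 7, against 11.5% of those coding genes. The only one of those 7 outside the interferon-inducible list was Trim36. Replicate 2 was the highest library for 5 of the 13 and 9 of the 12, against 61.6% of coding genes. Starting amount and replicate cannot be told apart, and the split into these subsets was chosen after values were seen.

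Trim21 was lowest at −0.74 (20.7, 11.4 and 18.9 TPM), followed by Trim26 at −0.52, Trim30c at −0.42, Trim36 at −0.41, Trim30a at −0.24 and Trim5 at −0.17. At the other end stood Trim13 at 0.72, Trim35 at 0.55, Trim24 at 0.50 (6.98, 9.78 and 6.29 TPM), Trim44 at 0.48 (3.13, 5.42 and 4.14 TPM), Trim11 at 0.42 (4.33, 6.92 and 5.55 TPM) and Trim33 at 0.41 (5.37, 7.82 and 5.89 TPM). Trim44 lacks a RING domain and Trim11 is a PRY-SPRY ligase. Trim25 did not go with Trim21 and Trim26: its deviation was 0.28, and replicate 1 was its lowest library.

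Scaling moves these values as a whole, so they are best read against all coding genes, whose median deviation was 0.24 on TPM and −0.05 on CPM with TMM factors. Relative to that median the interferon-inducible genes stood at −0.30 on TPM and −0.33 on TMM values, and the other TRIM genes at 0.13 and 0.17. Against replicate 1 alone the interferon-inducible genes stood at −0.37, and against replicate 3 alone at −0.25. Of the 13, 11 lay below the coding median, and the exceptions were Trim25 and Trim14. Over all 25 TRIM genes the median was 0.19, close to the coding value, and the median SD of log2(TPM + 1) over libraries was 0.245 (coding genes 0.244).

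**Figure D3:**
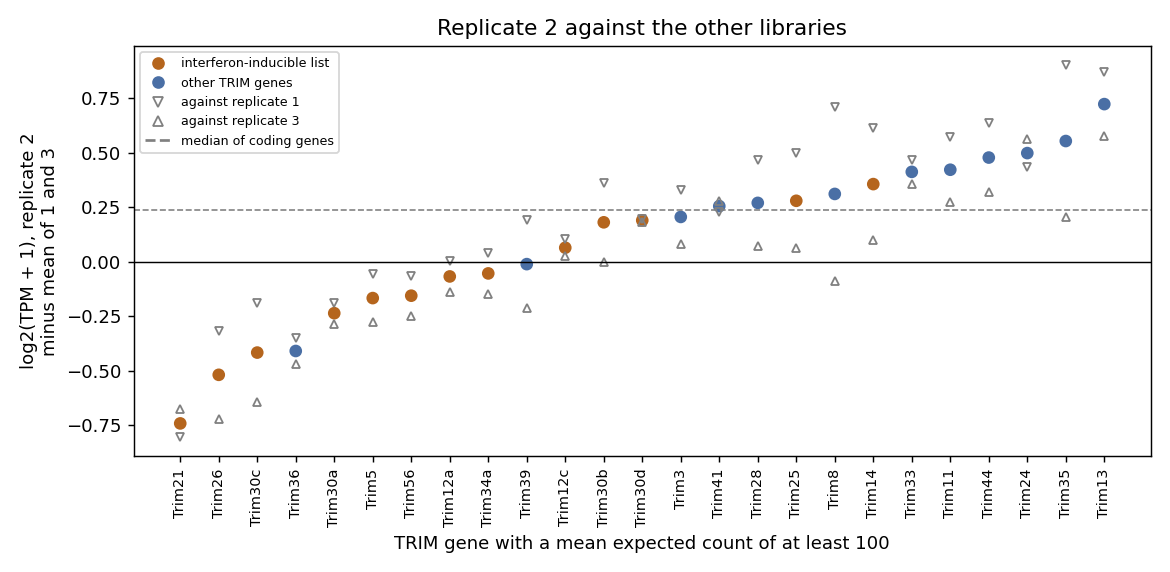
Replicate 2 minus the mean of replicates 1 and 3 in log2(TPM + 1), for the 25 TRIM genes with a mean count of at least 100. Open triangles give the difference from each of those libraries alone, and the dashed line is the median of coding genes, 0.24. Of the 9 genes with the lowest values, 8 are interferon-inducible, and Trim21 is the lowest.

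The partners of these ligases were mostly present. Of 22 genes of RNA sensing, TLR signalling and interferon induction, 20 were detected, with a median log2(TPM + 1) of 5.02 ± 0.32. Ddx58, which encodes RIG-I, stood at 45.6, 40.2 and 42.2 TPM, and Tab2, whose product is a target of Trim30a and Trim38, at 64.9, 83.1 and 80.3. Ikbke, the kinase gene tied to Trim6, was the highest at 599, 599 and 640 TPM. Tmem173, which encodes STING, the partner of Trim56, was at 0.72, 0.56 and 0.34 TPM and was not detected. In the table with estimated counts its mean was 2.15 TPM. The other gene not detected was Mavs, which encodes MAVS, at 0.82, 1.63 and 2.25 TPM, with a mean of 2.31 TPM with estimated counts. Over the 18 of these 22 genes that averaged 100 counts or more, replicate 2 was the lowest library for 5 and the highest for 10. The shares over all coding genes under this rule were 11.5% and 61.6%. Among the 5, Ifih1, which encodes the sensor MDA5, stood at 323, 139 and 566 TPM, Ifnb1 at 23.6, 14.3 and 37.2 and Isg15 at 26.34, 23.35 and 41.24. The rest were Ddx58 and Ikbke, with replicate 2 close to the next library (40.22 against 42.18 TPM and 598.75 against 599.25). Among relatives of the TRIM proteins with other names, Mid1 was at 234 ± 27.5 TPM, above every TRIM gene, Mefv, the pyrin gene, at 14.1 ± 1.72, Pml at 11.4 ± 1.96 and Rnf135 at 6.67 ± 0.503. With estimated counts the means were 1209 TPM for Mid1, 17.6 for Mefv, 21.4 for Pml and 56.0 for Rnf135. Rnf135 then ranked above Pml, and Pml above Mefv.

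Summed over TRIM genes, most TPM lay on coding isoforms, with a larger coding share than for coding genes at large. Of the TPM summed over 269 TRIM transcripts, 72.7% ± 0.754 was on coding, 19.5% ± 0.799 on retained-intron, 7.5% ± 1.07 on processed and 0.356% ± 0.191 on nonsense-mediated decay isoforms. For all coding genes the coding share was 48.2% ± 1.48 and the retained-intron share 39.3% ± 1.65. These shares are weighted by TPM, so a few high genes weigh heavily in that of the family. Trim30a had 80.4 coding TPM in the mean, and Trim25, Trim30d and Trim30c, at 69.3, 37.9 and 28.0 TPM, have no annotated retained-intron isoform. An annotated retained-intron isoform still holds an intron and is not translated in full. Many are short, and TPM divides by length, so a short isoform needs few reads for a high TPM.

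Retained-intron and coding TPM were compared within each gene by limma on their log2 ratio over 5601 genes, of which 35.5% had retained-intron and 31.8% coding isoforms higher at a Benjamini-Hochberg adjusted p under 0.05. Both classes were annotated for 22 TRIM genes and 15 passed the minimum of a mean summed TPM of 1. Of these, 4 had retained-intron isoforms higher and 6 coding isoforms higher, with a median log2 ratio of −0.03 against 0.08 for all genes tested. Separate animals are not named in the labels, where the 3 libraries carry 1 donor entry, so these p-values measure only the spread between libraries.

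Trim28 had the highest ratio, with retained-intron TPM of 4.87, 7.37 and 6.53 and coding TPM of 0.84, 1.07 and 1.29. Its log2 ratio was 2.10 ± 0.20 (SE, limma adjusted p = 2.84e-05). That sum covers 8 retained-intron isoforms and 1 coding isoform, and as a mean per transcript the ratio turned to −0.29. Trim26 had retained-intron TPM of 26.7, 21.5 and 29.7 and coding TPM of 5.27, 3.75 and 10.99, a log2 ratio of 2.00 ± 0.21 (limma adjusted p = 4.84e-05). In the table with estimated counts the ratio was 0.47 (limma adjusted p = 0.0235), with a mean coding TPM of 21.4 in place of 6.67. Its largest single isoform was neither kind, the processed transcript Trim26-209 at 27.3 TPM in the mean.

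Trim21 had retained-intron TPM of 16.0, 8.06 and 14.2 and coding TPM of 4.72, 3.36 and 4.65. Its ratio was 1.44 ± 0.17 (limma adjusted p = 0.000119), and both its classes were lowest in replicate 2. For Trim3 retained-intron TPM was 11.4, 14.0 and 13.0, coding TPM 3.66, 5.27 and 4.88, and the ratio 1.39 ± 0.16 (limma adjusted p = 8.85e-05). The leading retained-intron isoforms of Trim21 and Trim3, Trim21-205 and Trim3-209, are 634 and 600 bases long. As a mean per transcript the ratio was 3.27 for Trim26 and 0.82 for Trim21.

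Trim30a had the lowest ratio in the table with expected counts. Its coding isoform had 81.5, 74.0 and 85.7 TPM and its retained-intron isoform 8.22, 5.53 and 8.99, a log2 ratio of −3.35 ± 0.15 (limma adjusted p = 8.34e-07). With estimated counts it was −1.86, and Trim30b at −3.42 was then lower. Trim35 had coding TPM of 16.7, 26.1 and 23.8 and retained-intron TPM of 3.24, 12.1 and 9.21, with a ratio of −1.53 ± 0.22 (limma adjusted p = 0.000327). As a mean per transcript the ratio was −0.57. The summed ratio was lowest in replicate 1, the library in which the whole gene was lowest. Trim12a had coding TPM of 29.1, 25.7 and 28.2 and retained-intron TPM of 13.4, 13.6 and 15.6, with a ratio of −0.94 ± 0.14 (limma adjusted p = 0.000448), but 0.59 as a mean per transcript.

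The other genes with coding isoforms higher had low levels or weaker calls. Trim37, a ligase for histone H2A, had a ratio of −1.26 ± 0.28 (limma adjusted p = 0.00356), with retained-intron TPM of only 0.22, 0.21 and 0.08 beside coding TPM of 0.70, 1.97 and 0.88. In the table with estimated counts its ratio turned to 0.58. Trim30b, with coding TPM of 1.72, 1.76 and 2.53 and retained-intron TPM of 0.50, 1.37 and 0.62, had a ratio of −0.95 ± 0.28 (limma adjusted p = 0.0151). Trim39 had coding TPM of 2.34, 2.27 and 3.20, retained-intron TPM of 1.00, 1.40 and 1.28 and a ratio of −0.84 ± 0.22 (limma adjusted p = 0.0100), which turned to 0.34 as a mean per transcript and to 0.049 with estimated counts. Without replicate 3 neither Trim30b nor Trim39 was called (limma adjusted p = 0.0878 for Trim30b and 0.0607 for Trim39).

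Trim59, Trim33, Trim27, Trim24 and Trim7 passed the test in neither direction, with ratios from −0.91 (Trim7) to 0.16 (Trim59). Trim7 missed it at a limma adjusted p of 0.0677 with ratios of −0.11, −0.44 and −2.19 by library, and passed without replicate 1 (limma adjusted p = 0.0151). With estimated counts, retained-intron isoforms were higher for Trim33 (0.99, limma adjusted p = 0.000546) and Trim24 (0.77, limma adjusted p = 0.00487). As a mean per transcript they were higher for Trim33 (0.80, limma adjusted p = 0.00366), Trim27 (0.57, limma adjusted p = 0.0225) and Trim59 (0.56, limma adjusted p = 0.0266). Trim25 has no annotated retained-intron isoform. Its TPM lay on 2 coding isoforms, Trim25-203 at 46.3 and Trim25-202 at 23.0 in the mean, and the table with estimated counts put them in the opposite order, at 40.8 and 66.9.

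**Figure D4:**
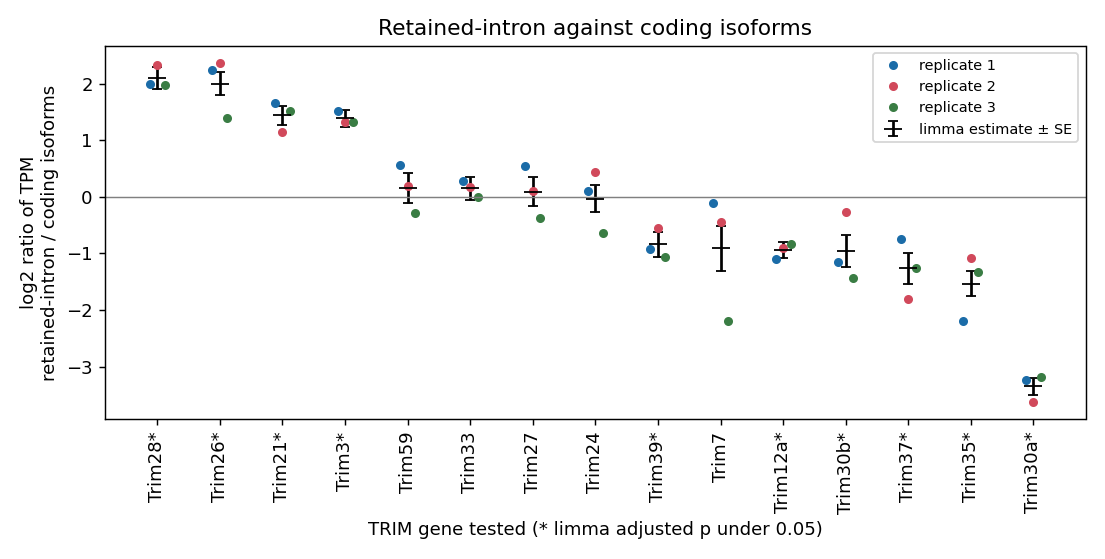
Log2 ratio of retained-intron to coding isoform TPM, 0.5 added to each, for the 15 TRIM genes tested. Points are libraries, black marks the limma estimate with its SE, and asterisks mark an adjusted p under 0.05. Trim28, Trim26, Trim21 and Trim3 lie above 0 in every library and Trim30a lies lowest, at −3.35.

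The quantification with estimated counts, its TPM summed per gene, kept the order of the highest genes but not their levels. For 45 of the 68 TRIM genes the mean moved by more than the gene-table SD over libraries, Trim30a, Trim25 and Trim12a among them. Among 41 TRIM genes at a mean TPM of at least 1 in either table, 40 were higher in the second, against 94.6% of 11809 coding genes. The median log2 ratio was 0.47 for TRIM genes and 0.75 for coding genes. Of the 41, 8 were over 4-fold higher, against 25.8% of coding genes, and 0 over 4-fold lower.

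The widest gaps concerned genes at or near 0 in the gene table. Trim52, which lacks a PRY-SPRY domain, had no count in the gene table and 17.6, 17.0 and 13.6 TPM in the other, nearly all on 1 processed transcript of 584 bases. Trim63 likewise went from 0 to 4.03, 5.83 and 4.24 TPM, with no TPM on either coding isoform. Trim67 went from 0, 1 and 0 counts to 1.01, 1.05 and 1.07 TPM, and Trim43b, a gene of early embryos with near copies, from 0, 0 and 1 counts to 1.15, 1.42 and 1.16 TPM. The TPM of Trim67, a neural gene, lay on 1 coding isoform of 8735 bases.

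Trim6 rose most among genes with more reads, from a mean of 0.45 to 13.0 TPM (6.73, 20.4 and 11.99 by library), mostly on the coding isoform Trim6-201. There replicate 2 was its highest library. Trim30b went from 2.83 to 16.1 TPM (18.3, 14.2 and 15.9), Trim65, a ligase for MDA5, from 1.09 to 5.50 (4.52, 6.40 and 5.595) and Trim2, which acts on neurofilaments, from 0.75 to 3.06 (2.42, 3.60 and 3.16). With the second table Trim6 and Trim30b would rank beside Trim34a, at 14.6 TPM, so their place in the cluster depends on the quantification. Trim30a stayed first at 121 ± 13.7 TPM, followed by Trim25 at 108 ± 10.3. The annotated isoform with most TPM was the same in both tables for 16 of 27 detected TRIM genes with more than 1 isoform.

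**Figure D5:**
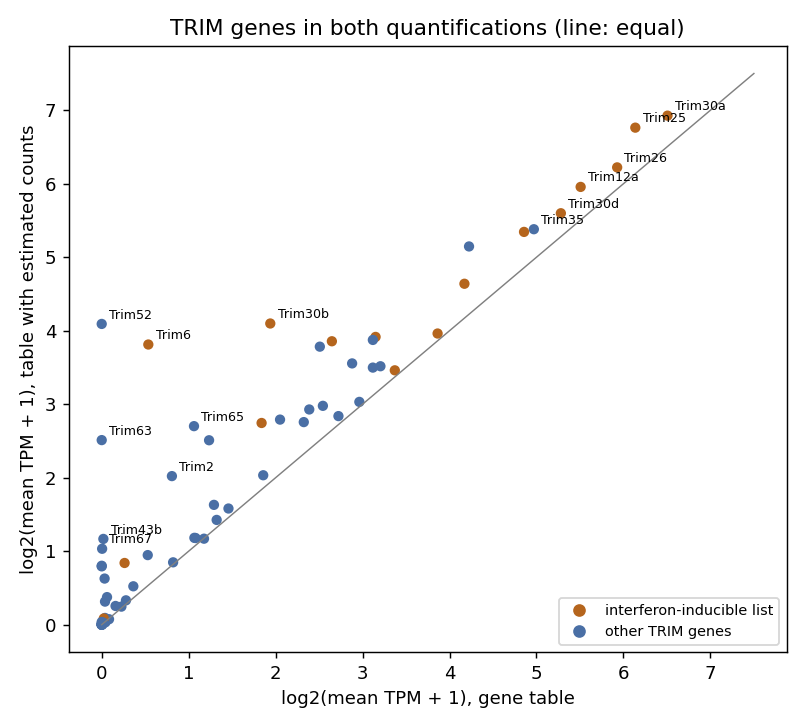
Mean level of each of the 68 TRIM genes in the gene table (x axis) and in the table with estimated counts (y axis), both as log2(mean TPM + 1). The line marks equal values. Trim52, Trim63, Trim6 and Trim30b lie far above it, and the 6 highest genes lie just above it.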

How the data were processed

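Total RNA-seq was run on chromatin RNA of 3 libraries. Per the labels the assembly was mm10, and per the deposited text files the annotation was GENCODE M21; the sources used here do not give aligner, quantifiers or strand setting. Per the file headers, the authors deposited expected counts and TPM per gene and per transcript, and a second transcript table with estimated counts and TPM. The deposited posterior SD, in counts, is listed as another unit. Rows naming no gene (1.40%, 0.352% and 0.354% of expected counts) stayed out of totals. Symbols, types and coordinates came from M21. No count model was fitted, and expected counts were not rounded. The TRIM genes and all lists were chosen with earlier results of these data known.

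Levels are deposited TPM, averaged over 3 libraries. Isoform ratios were tested with limma 3.58.1 (intercept only, pseudocount 0.5, variance trend on mean log2 summed TPM), after a test on simulated data. TMM factors came from edgeR 4.0.16. Other software was biopython 1.88, matplotlib 3.10.9, pandas 2.3.3 and numpy 2.4.6 under python 3.11.15, and R 4.3.3. Any TRIM gene may be named; values by library go to the 12 highest, the interferon-inducible list, the 6 largest and 6 smallest replicate 2 deviations and isoform ratios, and genes over 4-fold apart between tables. Alternatives changed pseudocount, unit, filters, quantification and left-out library. The centred alternatives other than the TPM one, and those for the interferon-inducible and other subsets, were chosen after seeing the data.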

Additional observations from a re-analysis of the deposited data

How the results depend on the processing

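The number of detected genes (28) was 36 at a TPM minimum of 0.5, 40 at an expected count of at least 10 and 38 in the table with estimated counts, and ran from 28 to 32 with 1 library left out. The median level of TRIM genes (0.97) became 0.053 with a pseudocount of 0.1, 1.76 on CPM, 1.60 in the table with estimated counts and 3.07 over detected genes, and 0.85 to 1.09 with 1 library left out. The excess of interferon-inducible over other genes (3.28) became 5.03, 4.0, 3.08 and 1.51 under those settings, and 3.24 to 3.33 with 1 library left out. The deviation of replicate 2 over all TRIM genes (0.19) became −0.18 with TMM and, centred on coding genes, −0.047 on TPM, −0.14 with TMM, −0.15 in the table with estimated counts, −0.14 against replicate 1 and −0.079 against replicate 3. For genes outside the interferon-inducible list (0.36) it became 0.13 with TMM, 0.13 centred on TPM, 0.12 centred in the table with estimated counts, 0.10 centred against replicate 1 and 0.032 with no count minimum. Genes with retained-intron isoforms higher (4) became 7 of 15 as a mean per transcript, where all genes so called rose from 1988 to 2420 of 5601, and 9 of 18 with estimated counts, where they were 3201 of 6847, and stayed 4 without any 1 library. Genes with coding isoforms higher (6) became 3 with no filter, 3 at a minimum TPM of 5 and 3 per transcript, and 4 to 7 with 1 library left out. Among ratios called before or after the change, signs turned for Trim28 (−0.29), Trim39 (0.34) and Trim12a (0.59) per transcript. With estimated counts they turned for Trim24 (0.77), Trim39 (0.049) and Trim37 (0.58). Ratios called in neither also turned sign: Trim7 (0.23) with estimated counts, Trim27 (−0.14) and Trim59 (−0.041) without replicate 1, and Trim24 (0.27) without replicate 3. The stricter minimum also left fewer genes to test; otherwise the cause was not tested. No paired analysis was possible because the labels give 1 group. Counts of 3 or fewer cannot be told from absence at this depth.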
